A study of Mus musculus with 72 samples.

Results

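Chromatin-associated RNA sequencing (ChrRNA-seq) was examined here for 8 long noncoding RNA genes, Malat1, Neat1, Gas5, Snhg11, Pvt1, Dleu2, Miat and Rmst. They were chosen by name as RNAs known from the nucleus, and all 8 were present among the 22556 genes of the count files. The cells were female mouse embryonic stem cells (ESCs) from a 129 × CAST hybrid cross, differentiated towards neural progenitor cells (NPCs). In the iXist-ChrX_Dom line a doxycycline-inducible TetOn promoter replaced the Xist promoter on the 129S (Dom) X chromosome, and in the iXist-ChrX_Cast line it did so on the Cast X. Each line was sampled as wild type (WT) and after SmcHD1 knockout (KO), with clone A3 in the Dom line and clones D5 and G6 in the Cast line.

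SmcHD1 is a chromosomal protein needed for full silencing of the inactive X, and the study followed how silencing was built up with and without it. All 8 genes here are autosomal. Xist was induced with doxycycline at 1 µg/mL in WT and KO cells alike, and libraries were made at days 2, 3, 5, 7, 15, 21 and 35 of NPC differentiation, and at day 52 in the Dom line. Uninduced ES libraries were used for the 3 KO clones and not for WT. They differ from days 2 and 3 in Xist induction and culture medium as well as in differentiation, and these cannot be told apart. After day 7 the cells were moved to suspension with the growth factors EGF and FGF, then replated and passaged. Libraries of day 15 and later therefore differ from days 2 and 3 in culture as well as in time, which cannot be told apart either. Each KO genotype is carried by single clones, each day from 15 on has 1 replicate per clone, and ES cells were grown on inactivated mouse fibroblast feeders that were removed by pre-plating. Days 2 to 7 came from replicate time courses of the same clones, so p-values measure the spread between time courses and days of a clone and not between clones of a genotype.

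Long noncoding RNAs that stay in the nucleus act where they are made or inside nuclear bodies. Malat1 is an abundant RNA of nuclear speckles, the bodies rich in splicing factors, and Neat1 is the scaffold on which paraspeckles assemble. Gas5 and Snhg11 are small nucleolar RNA (snoRNA) host genes, whose introns release snoRNAs while the spliced transcript of Gas5 is short-lived in translating cells. Pvt1 lies beside the Myc oncogene and Dleu2 carries the microRNAs miR-15a and miR-16-1 in an intron. Miat, also called Gomafu, forms its own nuclear domain in neurons and binds splicing regulators, and Rmst is a neural transcript that works with the transcription factor Sox2.

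The 72 libraries held between 9344054 and 31216487 gene-assigned fragments each, and 44.8 to 50.3% of these carried an allele. Some D5 and G6 replicates were deposited as libraries labelled R1 and R2 under 1 replicate number. What R1 and R2 stand for is not given in the labels, and they could differ clearly (Miat in D5 at day 3 was at 45.91 and 17.72 RPM). The paper's legend for the Cast line gives 3 replicate time courses at day 3. In D5 and G6 that number is reached only if R1 and R2 are counted apart, so they may be separate time courses. Each pair of R1 and R2 was summed here, and n, SD and p-values of D5 and G6 rest on these sums. Treating the libraries as separate replicates changed 1 call in the comparisons where it was run, that of Pvt1 in D5 late. The sums gave 65 replicates in 40 groups of clone and day: 12 of Dom WT, 14 of A3, 14 of Cast WT, 13 of D5 and 12 of G6. RPM is used for the fragments of a gene divided by all fragments assigned to genes in that replicate and scaled to a common total of 1e6. Smchd1 RNA stayed in the KO clones, at a mean of 479 RPM in A3, 507 in D5 and 504 in G6 from day 2 on against 543 in Dom WT and 576 in Cast WT. Its level therefore does not check the KO labels. The Xist allele does check the lines, since 94.5 to 97.2% of allelic Xist fragments were Cast in the Cast-line clones and 0.0610 to 0.147% in the Dom-line clones.

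Libraries of day 15 and later differed from the earlier ones in cell type markers as well. The summed level of the fibroblast markers was 5.87 to 16.1 RPM per replicate at days 2 and 3, and it lay between 225 and 15162 RPM at day 15 and later. ES cell markers summed to 163 to 851 RPM per replicate at days 2 and 3 and to 3.68 to 190 RPM in late libraries, and the value of 190 was that of Dom WT at day 21. NPC markers summed to 34.6 to 98.3 RPM at days 2 and 3 and to 129 to 914 RPM late. The part of these cells in the results below was not tested, and in such bulk libraries fewer cells of a type and less RNA per cell cannot be told apart.

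Positions are those of mm10. Malat1 spans chr19:5795689-5802671 and Neat1 lies 39.6 kb away at chr19:5842301-5845478, both on the minus strand. The counted Neat1 span of 3178 bases is that of the short isoform, so the longer isoform beyond it was not counted. Gas5 lies at chr1:161035165-161038537 on the plus strand, 0.906 kb from Zbtb37, and Snhg11 at chr2:158375637-158386145 on the plus strand. Pvt1 spans chr15:62037986-62250975 on the plus strand, 47.6 kb from Myc. Dleu2 spans chr14:61602835-61682373 on the minus strand and overlaps Trim13 and Kcnrg, which are transcribed from the other strand. Miat lies at chr5:112213227-112228948 and Rmst at chr10:92081745-92165178, both on the minus strand. None of the 8 overlapped another counted gene on its own strand. The counts cover whole transcript spans, exons and introns alike, so a snoRNA or microRNA precursor inside an intron counts towards its host.

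Dleu2 and Rmst hold microRNAs, which are shown because a count of either gene includes their precursor transcript. In the mature sequences from RefSeq below, 5′ to 3′, capitals mark the seed, bases 2 to 8. The first and second share the seed AGCAGCA, which 10 of the 1679 mature mouse sequences in the RefSeq table carry. They come from chr14:61632075-61632096 and chr14:61631936-61631957 inside Dleu2 on the minus strand, and the third comes from chr10:92137190-92137210 inside Rmst on the minus strand.
mmu-miR-15a-5p: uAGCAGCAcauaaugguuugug
mmu-miR-16-5p: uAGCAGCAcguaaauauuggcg
mmu-miR-1251-5p: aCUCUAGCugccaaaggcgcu

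Gas5 held 10 annotated snoRNA transcripts of 9 snoRNA genes, 60 to 84 bases long, on its own strand. Members of the C/D box class guide RNA methylation and are recognised by a C box, searched here as TGATGA, and a D box, searched as CTGA. Of the 10, 8 held TGATGA and 10 held CTGA. The 3 below show a pair with both boxes in capitals and one, Snord78, in which only the D box was found. They lie at chr1:161038082-161038158, chr1:161037601-161037681 and chr1:161036984-161037049 on the plus strand of mm10.
Snord47: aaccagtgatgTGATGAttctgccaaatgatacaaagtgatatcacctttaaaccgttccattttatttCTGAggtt
Snord80: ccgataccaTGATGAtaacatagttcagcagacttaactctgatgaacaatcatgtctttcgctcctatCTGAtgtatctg
Snord78: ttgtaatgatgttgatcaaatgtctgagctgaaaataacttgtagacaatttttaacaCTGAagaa

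A promoter window of Gas5 is shown because Gas5 moved with other snoRNA host genes in these libraries. It runs from 250 bases before to 50 after a RefSeq start, at chr1:161034916-161035215 on the plus strand of GRCm38.p6. Capitals mark TGACGTCA, the full cyclic AMP response element, and TATATA. The motifs searched, on both strands, were TGACGTCA, then TATATA, then TATAAA, and the E-box CACGTG. The pair of TATA motifs can overlap each other. Of the 32851 mouse promoters in the same table, 1.79%, 5.67%, 13.6% and 7.15% held them. The GC content of this window was 62.0%, against a median of 52.7% over all promoters. Another RefSeq window of Gas5, at chr1:161034351-161034650 on the plus strand, held none of these motifs and had a GC content of 73.7%.
Gas5 promoter: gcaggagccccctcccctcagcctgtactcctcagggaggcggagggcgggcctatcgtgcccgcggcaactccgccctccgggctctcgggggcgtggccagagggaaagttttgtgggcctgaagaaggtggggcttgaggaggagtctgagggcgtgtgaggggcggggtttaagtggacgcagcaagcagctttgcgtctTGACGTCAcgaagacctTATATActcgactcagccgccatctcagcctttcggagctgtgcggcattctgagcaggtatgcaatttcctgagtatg

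Over the 65 replicates Malat1 led the 8 genes by a wide margin. On a per-length scale its mean level was 1175 RPM per kb, with replicates from 622 to 3809. Gas5 followed at 121 RPM per kb, from 24.4 to 243, and its range did not touch that of Malat1. Neat1 stood at 8.64 RPM per kb, from 0.499 to 41. Pvt1 at 2.43, Dleu2 at 2.42 and Snhg11 at 2.28 RPM per kb did not differ beyond their spread, since their ranges of 0.34 to 5.16, 1.39 to 4.95 and 0.0128 to 6.00 overlapped almost fully. Miat at 1.17 and Rmst at 0.145 RPM per kb were lowest, with ranges of 0.0669 to 4.99 and 0.0112 to 1.45. Dleu2 varied least, at 192 ± 56.6 RPM (SD, n = 65), and Rmst varied by more than its mean, at 12.1 ± 20.5 RPM. The lowest fragment counts behind a value were 4 for Snhg11, 22 for Rmst, 38 for Miat and 48 for Neat1.

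**Figure D1:**
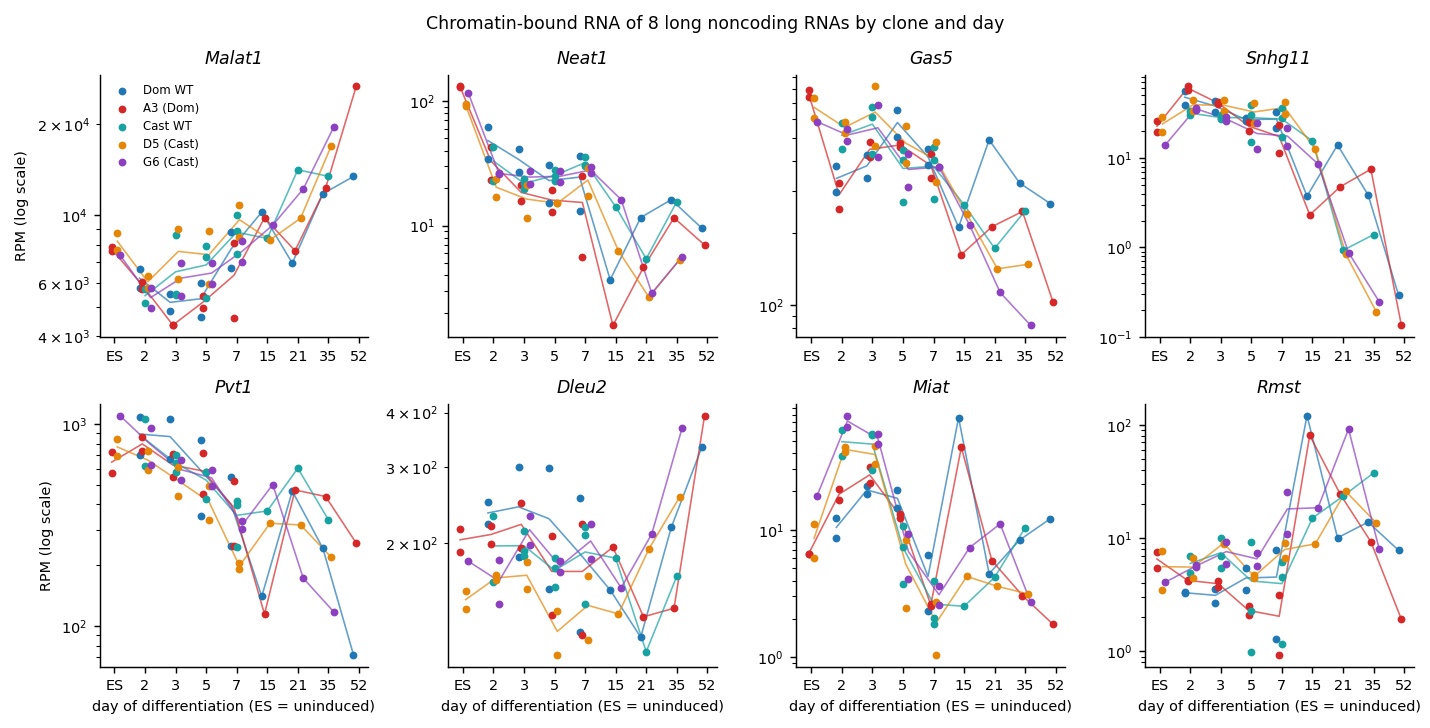
Level of each of the 8 genes in RPM on a log scale (vertical axis) against day of differentiation, with ES for the uninduced libraries (horizontal axis). Points are replicates, lines join the mean of each clone, and the axis range differs between panels. Malat1 is highest in the A3 library of day 52 at 26600 RPM, Neat1 is highest in the ES libraries, and Snhg11 falls to 0.135 RPM in A3 at day 52.

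The first comparison set day 15 and later against days 2 and 3 within each clone, with edgeR's quasi-likelihood test across all genes and Benjamini-Hochberg adjustment, and a gene was called at an adjusted p under 0.05. Below, early stands for days 2 and 3 and late for day 15 on. Of the 8 genes, 5 were called in Dom WT, 2 higher and 3 lower, where 54.9% of all genes tested were called. In A3 there were 5, 2 higher and 3 lower, beside a background of 54.8%. Cast WT had 6, 2 higher and 4 lower, with 53% of all genes called. D5 had 7, 3 higher and 4 lower, with 54.4%, and G6 had all 8, 3 higher and 5 lower, with 53.1%. In the Dom clones these shares are close to the background, so they say little about the 8 genes as a group, and the named genes below carry the result. Malat1 and Rmst rose and Neat1 and Snhg11 fell in all 5 clones, and the median log2 fold change over all genes was within 0.09 of 0 in every comparison.

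**Figure D2:**
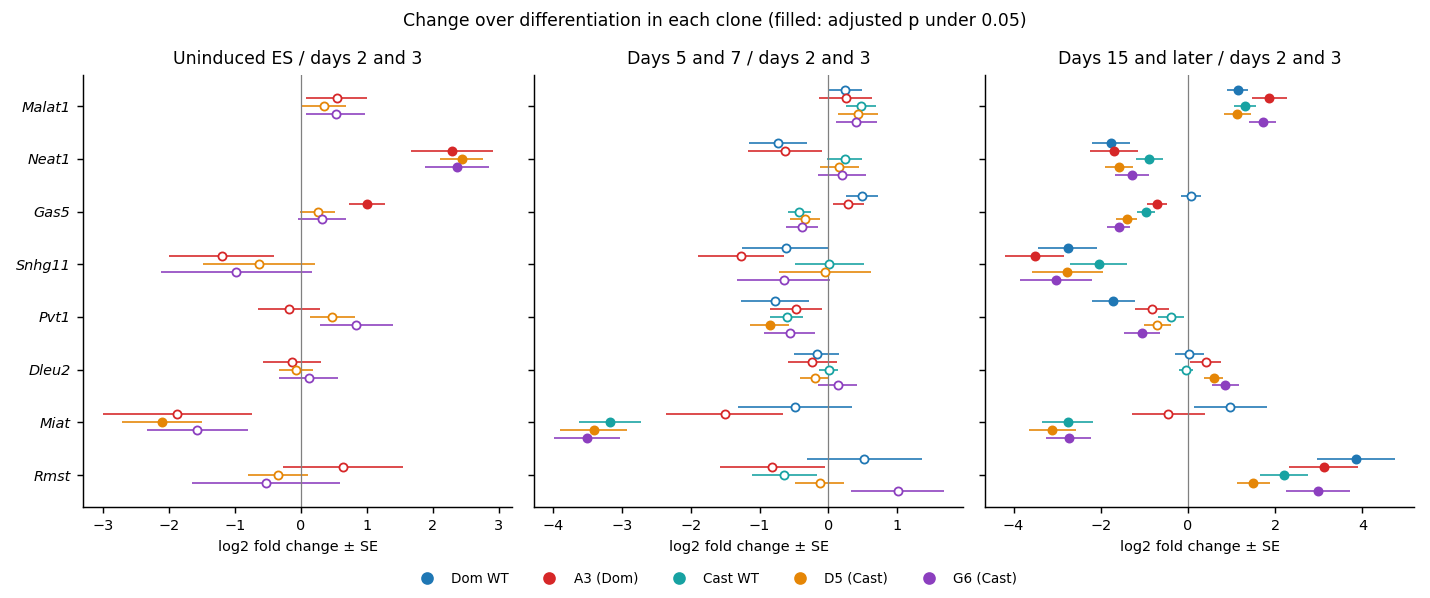
Log2 fold change (horizontal axis) of each gene (vertical axis) against days 2 and 3 of the same clone, for uninduced ES, days 5 and 7, and days 15 and later. Points are the edgeR estimate, bars are 1 SE, filled points have an adjusted p under 0.05, and ES has no WT point. On the right, Malat1 and Rmst are filled to the right of 0 and Neat1 and Snhg11 to the left in every clone.

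Malat1, the speckle RNA, rose from days 2 and 3 to the late days in every clone. The uninduced ES libraries held 7651 and 7844 RPM in A3, 7705 and 8756 in D5 and 7406 in G6. In A3 and G6 these lay above every library of days 2 and 3, and in D5 they overlapped them, with no ES difference called (adjusted p = 0.473, 0.512 and 0.541 in A3, D5 and G6, edgeR). In Dom WT, Malat1 stood at 5756 and 6673 RPM at day 2, 4849 and 5500 at day 3, and 10260, 6964, 11790 and 13440 at days 15, 21, 35 and 52. In A3, Malat1 was at 5739 and 6049 RPM at day 2 and 4363 and 4344 at day 3, then at 9822, 7656, 12320 and 26600 on the same late days. In both Dom clones every late library lay above every library of days 2 and 3. In Cast WT, Malat1 values were 5729 and 5153 RPM at day 2, 5501, 8604 and 5463 at day 3, and 8402, 14140 and 13460 at days 15, 21 and 35. In D5, Malat1 values were 6329, 5764, 9031 and 6199 RPM at days 2 and 3, and 8306, 9790 and 16920 late. The highest early library overlapped the day 15 library in both Cast WT and D5, while the later days stood above. In G6, Malat1 went from 5777, 4951, 6999 and 5436 RPM at days 2 and 3 to 9293, 12230 and 19590, with no overlap.

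The rise of Malat1 was 1.14 ± 0.24 (log2 fold change ± SE, adjusted p = 0.00216, edgeR) in Dom WT and 1.86 ± 0.40 (adjusted p = 0.00187) in A3. In Cast WT it was 1.30 ± 0.25 (adjusted p = 0.000659), in D5 1.13 ± 0.31 (adjusted p = 0.00744) and in G6 1.71 ± 0.32 (adjusted p = 0.00121). Without the day 35 library the D5 value was 0.74 (adjusted p = 0.0478).

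Neat1, counted only over the span of its short isoform, moved the opposite way and was highest in the uninduced ES libraries of the 3 KO clones. The uninduced ES libraries held 128.4 and 130.5 RPM in A3, 94.82 and 90.38 in D5 and 115.1 in G6. At days 2 and 3, Neat1 was at 43.01, 23.24, 21.03 and 15.9 RPM in A3, at 16.83, 23.83, 21.09 and 11.56 in D5 and at 26.08, 26.35, 27.39 and 21.65 in G6. All ES values lay above all values of days 2 and 3 in the 3 clones. The ES level of Neat1 was higher by 2.29 ± 0.62 (log2 fold change ± SE, edgeR, adjusted p = 0.0303) in A3, 2.44 ± 0.33 (adjusted p = 0.00145) in D5 and 2.37 ± 0.48 (adjusted p = 0.024) in G6. The A3 call was lost without either ES replicate (adjusted p = 0.198 and 0.104), without day 2 replicate 2 (0.06) or without either day 3 replicate (0.0762 and 0.0828). The G6 call was lost without day 2 replicate 2 (adjusted p = 0.0515) or either day 3 replicate (0.0548 and 0.0629), and with library totals in place of TMM scaling (0.0554). The D5 call held under every alternative run. In this ES comparison 2 of the 8 genes were called in A3, beside 12.9% of all genes, 2 in D5 beside 15.4% and 1 in G6 beside 4.17%.

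By day 15 and later Neat1 had fallen further. In Dom WT, Neat1 went from 34.04, 62.1, 26.69 and 41.33 RPM at days 2 and 3 to 3.684, 11.62, 16.16 and 9.547. The late values in A3 were 1.587, 4.635, 11.56 and 6.999 RPM, those in D5 were 6.288, 2.668 and 5.337, and those in G6 were 16.18, 2.878 and 5.649. In Cast WT, Neat1 was at 43.04, 22.88, 21.92, 23.84 and 19.77 RPM early and at 14.19, 5.431 and 15.56 late. No late library overlapped one of days 2 and 3 in any of the 5 clones.

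The late fall of Neat1 was -1.76 ± 0.44 (log2 fold change ± SE, adjusted p = 0.00532, edgeR) in Dom WT and -1.69 ± 0.55 (adjusted p = 0.0191) in A3. It was -0.88 ± 0.31 (adjusted p = 0.0261) in Cast WT, -1.58 ± 0.32 (adjusted p = 0.00121) in D5 and -1.28 ± 0.39 (adjusted p = 0.0176) in G6. Single libraries decided some of these calls. The A3 call was lost without day 2 replicate 1 (-1.33, adjusted p = 0.0684) or day 21 (-1.52, adjusted p = 0.0532), and the Cast WT call without day 2 replicate 1 (-0.62, adjusted p = 0.0635) or day 21 (-0.55, adjusted p = 0.135). The G6 call was lost without day 35 (-1.10, adjusted p = 0.0652), and its value was -2.01 without day 15. Frmd8, the nearest gene to Neat1 on its other side, was called higher in A3, Cast WT and D5.

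The proteins that build speckles and paraspeckles did not share one direction. Of 14 paraspeckle proteins tested, 1, 2, 1, 1 and 2 were called higher and 2, 4, 4, 2 and 3 lower in Dom WT, A3, Cast WT, D5 and G6, with median log2 fold changes between -0.10 and 0.15. Smarca4, a chromatin remodelling ATPase, was higher in all 5 clones by 0.39 to 0.65. Hnrnpa1, an RNA-binding splicing regulator, was lower in 3 clones, Nudt21, a 3′ end processing factor, in 4 and Pspc1, a core paraspeckle protein, in 3. Of 16 speckle proteins, 1 or 2 per clone were higher and 6, 7, 5, 4 and 3 lower, and medians ran from -0.32 to -0.20. In these comparisons 53 to 54.9% of all genes were called, higher or lower, so the counts say little about either list. The splicing factors Srsf2 (-1.19 to -0.73) and Srsf7 (-1.02 to -0.64) fell in all 5 clones and Srsf1 in 4, while the speckle scaffold Son rose in all 5, by 0.38 to 0.77.

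Gas5, the snoRNA host, fell in 4 of 5 clones. In Dom WT, Gas5 stood at 380.2, 295.8, 422.9 and 340.6 RPM at days 2 and 3 and at 211.3, 489.7, 323.3 and 265.4 at days 15, 21, 35 and 52. In A3, Gas5 went from 253, 325, 413.7 and 480.5 RPM to 162.3, 212.3, 245.9 and 103. Day 21 was the highest late value in Dom WT, the same library that had the highest late sum of ES cell markers, and the groups overlapped there but not in A3. In Cast WT, Gas5 was at 450.3, 574.3, 609, 429.3 and 671.1 RPM early and at 262.5, 172.6 and 247.7 late. In D5, Gas5 was at 525.3, 580.1, 460.7 and 818.8 RPM early and at 239.9, 141.6 and 147.9 late. In G6, Gas5 was at 484.6, 541.8, 415.3 and 685.2 RPM early and at 215.9, 112.8 and 82.16 late. Every late library of the 3 Cast clones was below every early one.

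The change in Gas5 was 0.06 ± 0.23 (log2 fold change ± SE, adjusted p = 0.837, edgeR) in Dom WT and -0.72 ± 0.23 (adjusted p = 0.0178) in A3. In the Cast line it was -0.96 ± 0.21 (adjusted p = 0.00133) in WT, -1.40 ± 0.24 (adjusted p = 0.000364) in D5 and -1.59 ± 0.26 (adjusted p = 0.000633) in G6. The A3 call was lost without day 15 (-0.62, adjusted p = 0.0531), day 3 replicate 1 (-0.61, 0.0584), day 3 replicate 2 (-0.52, 0.0776) or day 52 (-0.48, 0.0682). In ES libraries Gas5 was at 790.7 and 739.4 RPM in A3, 606 and 733.9 in D5 and 584.3 in G6. Only the A3 difference from days 2 and 3 was called (1.01 ± 0.27, adjusted p = 0.029), and it was lost without either ES replicate (adjusted p = 0.225 and 0.119), day 2 replicate 1 (0.0565) or day 3 replicate 1 (0.0527). Zbtb37, the neighbour of Gas5, was not called late in any clone.

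Snhg11, the other snoRNA host of the 8, fell in all 5 clones and was close to 0 RPM in their last libraries. In Dom WT, Snhg11 went from 39.33, 56.22, 32.76 and 43.27 RPM at days 2 and 3 to 3.748, 13.99, 3.866 and 0.2915 at days 15, 21, 35 and 52. In A3, Snhg11 went from 63.01, 58.23, 40.5 and 41.83 RPM to 2.314, 4.778, 7.493 and 0.1346. The last library of each Dom clone was the lowest. In Cast WT, Snhg11 went from 30.34, 33.2, 27.66, 30.21 and 26.99 RPM to 15.51, 0.9273 and 1.395 at days 15, 21 and 35. In D5, Snhg11 went from 33.83, 44.78, 43.95 and 33.92 RPM to 12.46, 0.8399 and 0.1906, and in G6 from 34.69, 36.56, 28.9 and 25.65 to 8.589, 0.8774 and 0.2487. The day 15 library of each Cast clone held the most of the late ones, and the groups did not overlap in any of the 5 clones.

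The late change in Snhg11 was -2.75 ± 0.68 (log2 fold change ± SE, adjusted p = 0.00497, edgeR) in Dom WT, -3.52 ± 0.68 (adjusted p = 0.00102) in A3 and -2.05 ± 0.66 (adjusted p = 0.017) in Cast WT. D5 gave -2.76 ± 0.82 (adjusted p = 0.0118) and G6 -3.04 ± 0.82 (adjusted p = 0.00958). Without day 15 the value was -4.31 in Cast WT, -5.88 in D5 and -5.40 in G6, and the Cast WT call was lost without day 21 (-1.56, adjusted p = 0.053) or day 35 (-1.58, adjusted p = 0.0564). In ES libraries Snhg11 stood at 19.58 and 25.92 RPM in A3, 19.62 and 28.46 in D5 and 13.99 in G6. These lay below every library of days 2 and 3 of the same clone, but no ES difference was called (adjusted p = 0.346, 0.634 and 0.674). The neighbour 9430008C03Rik fell in all 5 clones, by 1.08 to 1.44 on the log2 scale.

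Other snoRNA host genes were read from a list of 15, of which 10 were found in the count files by symbol and all 10 were tested. They were called lower in 6, 9, 9, 9 and 9 cases in Dom WT, A3, Cast WT, D5 and G6 and higher in 0, 1, 1, 1 and 0, with medians of -0.92, -1.52, -1.42, -1.62 and -1.78 (log2 fold change), while the median of all genes was near 0. Snhg9 (-3.30 to -1.79), Snhg12 (-2.17 to -0.95) and Snhg3 (-2.16 to -0.97) were lower in all 5 clones, and Snhg8 (-2.33 to -0.43) in 4. The gene called higher was Snhg18, named here after its values were seen. Of 8 factors of nonsense-mediated decay, the pathway that degrades many spliced snoRNA host transcripts, 1 was higher and 2 lower in each clone. Upf2 rose by 0.49 to 0.79, and Upf3b and Smg5 fell in all 5 clones, by 0.71 to 0.87 and by 0.54 to 0.75 on the log2 scale. Beside these list counts, 53 to 54.9% of all genes were called, higher or lower, in the same comparisons.

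**Figure D3:**
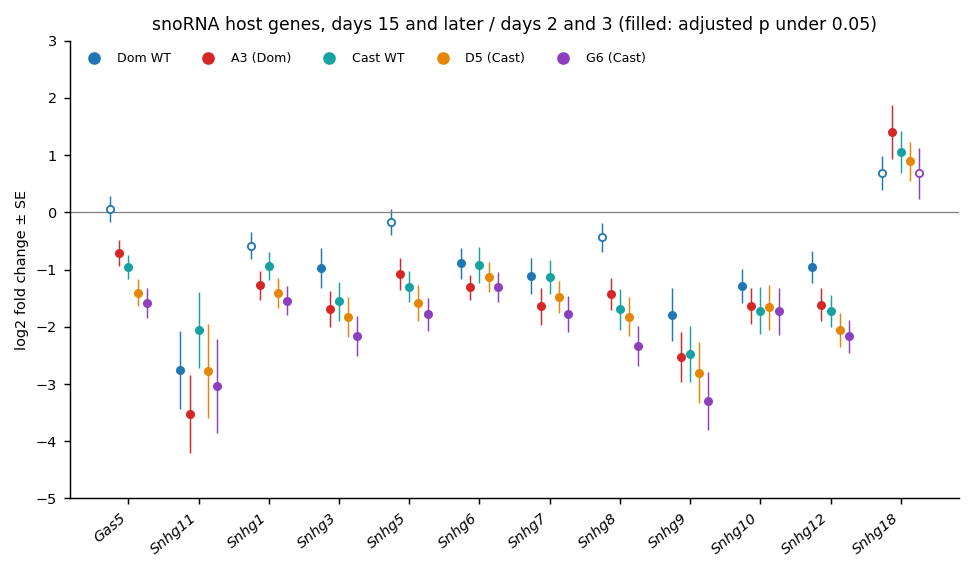
Log2 fold change of day 15 and later against days 2 and 3 (vertical axis) for Gas5, Snhg11 and the other snoRNA host genes tested (horizontal axis), 1 point per clone. Bars are 1 SE and filled points have an adjusted p under 0.05. Snhg11 and Snhg9 lie lowest, and Snhg18 lies above 0.

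Pvt1, the neighbour of Myc, was lower late in most clones but was called in 2. In Dom WT, Pvt1 stood at 702.8, 1080, 672.2 and 1060 RPM at days 2 and 3 and at 140.3, 465.6, 242.5 and 72.33 at days 15, 21, 35 and 52. In A3, Pvt1 was at 858, 735.7, 708.3 and 544.6 RPM early and 114.7, 471.6, 437.5 and 257.9 late. Both Dom clones showed no overlap, with day 21 the highest of the late days. In Cast WT, Pvt1 was at 1060, 621.2, 701.5, 642.6 and 579 RPM early and 371.4, 604.1 and 335.9 late, which overlapped. In D5, Pvt1 was at 731.5, 594.3, 611.1 and 438.1 RPM early and 322.8, 316.5 and 219.6 late. In G6, Pvt1 was at 955, 627.9, 659.9 and 528.3 RPM early and 501.6, 172.6 and 117.5 late. Neither of these KO clones overlapped.

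The fold change of Pvt1 was -1.71 ± 0.50 (log2 ± SE, adjusted p = 0.0124, edgeR) in Dom WT and -1.06 ± 0.41 (adjusted p = 0.0482) in G6. It was -0.83 ± 0.38 (adjusted p = 0.083) in A3, -0.39 ± 0.29 (adjusted p = 0.281) in Cast WT and -0.70 ± 0.31 (adjusted p = 0.0715) in D5. The G6 call was lost without any 1 replicate of days 2, 3, 21 or 35 (adjusted p = 0.0535 to 0.176) and its value was -1.75 without day 15. The D5 change was called under library totals (-1.05, adjusted p = 0.00874). Myc was not called late in any clone, with log2 fold changes of 0.18 to 0.59.

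Dleu2, the host of miR-15a and miR-16-1, kept nearly the same level for most of the course. At days 2 and 3, Dleu2 stood at 248.1, 221.2, 299 and 185.8 RPM in Dom WT and at 199.3, 219.1, 194.8 and 246.9 in A3. The late values were 155.8, 121.2, 217.3 and 333 RPM in Dom WT and 195.7, 135.1, 141.4 and 393.6 in A3. In both, the last library was highest and the groups overlapped. In Cast WT, Dleu2 was at 162.7, 231.2, 191.2, 213.1 and 187 RPM early and 184.5, 112.2 and 167.6 late. In D5, Dleu2 was at 164, 168.3, 156.5 and 180.5 RPM early and 137.2, 193.9 and 255 late, and in G6 at 144.4, 182.3, 198.4 and 231 early and 157.6, 209.8 and 369.6 late. The groups overlapped in all 5 clones.

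Dleu2 was called higher late in D5 (0.59 ± 0.22, log2 fold change ± SE, adjusted p = 0.0381, edgeR) and in G6 (0.86 ± 0.31, adjusted p = 0.0339). These calls turned on single libraries. They were lost without day 35 (0.33, adjusted p = 0.234, and 0.36, adjusted p = 0.21), and under library totals (0.22, adjusted p = 0.341, and 0.38, adjusted p = 0.225). In D5 they were lost also without day 21 (adjusted p = 0.0758), either day 2 replicate (0.0658 and 0.078) or day 3 replicate 1 (0.0609), and in G6 without either day 2 replicate (0.0843 and 0.0781) or day 3 replicate 1 (0.0533). The other clones gave 0.03 ± 0.33 (adjusted p = 0.939) in Dom WT, 0.41 ± 0.36 (adjusted p = 0.344) in A3 and -0.05 ± 0.16 (adjusted p = 0.834) in Cast WT. The genes on the opposite strand of Dleu2 fell in all 5 clones, Trim13 with log2 fold changes of -1.94 to -1.43 and Kcnrg of -2.29 to -1.25, and so did its neighbour Dleu7, at -4.04 to -3.27.

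Miat, the Gomafu transcript, had a short early peak in D5 and G6, while in both Dom clones its highest library was that of day 15. The ES libraries held 6.421 and 6.509 RPM in A3, 11.19 and 5.98 in D5 and 18.27 in G6. At days 2 and 3, Miat was at 17.26, 20.8, 23.08 and 30.84 RPM in A3, at 44.94, 40.58, 32.54 and 45.34 in D5 and at 78.49, 64.08, 46.89 and 56.83 in G6. All 3 clones were higher at days 2 and 3 with no overlap, but only D5 was called (ES against days 2 and 3 -2.11 ± 0.60, log2 fold change ± SE, adjusted p = 0.034, edgeR). That call was lost without ES replicate 2 (-1.61, adjusted p = 0.23) or without any of the 4 replicates of days 2 and 3 (adjusted p = 0.0505 to 0.0718).

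The comparison of days 5 and 7 with days 2 and 3 was added after the values were seen. At days 5 and 7 in Cast WT, Miat ranged from 1.832 to 10.63 RPM, against 60.36, 37.84, 56.61, 29.37 and 54.93 at days 2 and 3. In D5, Miat was then at 2.458, 8.316, 1.051 and 2.692 RPM and in G6 at 4.128, 9.353, 2.565 and 3.63. None of these touched the range of days 2 and 3. The fall was -3.17 ± 0.45 (log2 fold change ± SE, adjusted p = 0.000305, edgeR) in Cast WT, -3.41 ± 0.49 (adjusted p = 0.000864) in D5 and -3.51 ± 0.48 (adjusted p = 0.00197) in G6. Dom WT held 12.3, 8.607, 21.89 and 19.2 RPM at days 2 and 3 and 20.59, 14.69, 6.293 and 2.312 at days 5 and 7, which overlapped, and gave -0.49 ± 0.83 (adjusted p = 0.733). A3 held 13.27, 12.38, 2.509 and 2.632 RPM, below all its values of days 2 and 3, and gave -1.51 ± 0.85 (adjusted p = 0.241).

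Miat was the 1 gene of the 8 called at days 5 and 7 in Cast WT, where 38.1% of all genes were, and in G6, where 21.8% were. D5 had 2, beside 25.1% of all genes, the other being Pvt1 (-0.86 ± 0.28, log2 fold change ± SE, adjusted p = 0.0427, edgeR). The Pvt1 call was lost without any 1 of 6 replicates (adjusted p = 0.0655 to 0.132). By edgeR 0 of the 8 were called in Dom WT, beside 13.8%, and 0 in A3, beside 16%. At an unadjusted p under 0.05 there were 0 in both, and DESeq2 called 0 in both.

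Later on, Miat stayed low in the Cast clones, at 2.513, 4.239 and 10.4 RPM in WT, 4.311, 3.606 and 3.145 in D5 and 7.251, 11.13 and 2.7 in G6. Against days 2 and 3 these were lower by -2.76 ± 0.59 (log2 fold change ± SE, adjusted p = 0.00126, edgeR), -3.11 ± 0.54 (adjusted p = 0.000405) and -2.74 ± 0.52 (adjusted p = 0.00133). In the Dom line, Miat was high at day 15, with 75.73 RPM in WT and 44.36 in A3. The other late libraries held 4.527, 8.325 and 12.21 RPM in WT and 5.741, 3.05 and 1.817 in A3. The Dom changes were 0.97 ± 0.83 (adjusted p = 0.34) and -0.45 ± 0.83 (adjusted p = 0.663). Whether the lines differed was not tested.

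Rmst, the neural transcript, rose late in every clone, though not on the same day. In Dom WT, Rmst stood at 3.32, 3.268, 3.576 and 2.675 RPM at days 2 and 3 and at 120.8, 10.07, 13.86 and 7.798 at days 15, 21, 35 and 52. In A3, Rmst was at 4.262, 4.21, 4.189 and 3.735 RPM early and at 80.98, 24.39, 9.3 and 1.918 late. Day 15 held the peak in both, and the day 52 library of A3 fell below its early values. In Cast WT, Rmst was at 4.955, 7.006, 9.943, 6.925 and 5.446 RPM early and 15.04, 23.49 and 37.67 late, with no overlap. In D5, Rmst was at 4.452, 6.647, 8.921 and 9.11 RPM early and 8.898, 25.84 and 13.63 late, and in G6 at 5.804, 5.526, 9.298 and 5.912 early and 18.56, 91.91 and 8.083 late. Both peaked at day 21 and overlapped the early values at 1 late day.

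The rise of Rmst was 3.84 ± 0.90 (log2 fold change ± SE, adjusted p = 0.00379, edgeR) in Dom WT and 3.11 ± 0.80 (adjusted p = 0.00567) in A3. It was 2.20 ± 0.55 (adjusted p = 0.00392) in Cast WT, 1.50 ± 0.38 (adjusted p = 0.00512) in D5 and 2.99 ± 0.74 (adjusted p = 0.00581) in G6. Without day 15 the values were 1.96 (adjusted p = 0.00485) in Dom WT and 1.84 (adjusted p = 0.0194) in A3. Without day 21 the D5 value was 0.98 (adjusted p = 0.047), and the G6 call was lost (1.37, adjusted p = 0.0564). At day 15 the summed neuron markers were 802 RPM in Dom WT and 614 in A3, the libraries with the Dom peak of both Miat and Rmst, against 113 to 1154 in the other late Dom libraries. Their part in the result was not tested.

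Among 5 tested protein partners of these RNAs, 0, 1, 0, 0 and 0 were called higher and 0, 1, 1, 0 and 1 lower late in Dom WT, A3, Cast WT, D5 and G6. Hnrnpa2b1, an RNA-binding protein known as a partner of Rmst, ran from -0.59 to -0.25 over the 5 clones (log2 fold change), and Qk, a splicing regulator that binds Miat, from 0.37 to 0.42. Of the 6 partners listed, 1 had no counted fragments in each clone and period, uninduced ES included, and the reason was not tested. Sox2 was not among the genes tested. Marker genes of cell types moved with the late libraries. For these lists too, the share of all genes called late was 53 to 54.9%. Of 7 ES cell markers, 7, 5, 6, 5 and 4 fell, with Zfp42, Pou5f1, Esrrb and Nanog lower in all 5 clones. Of 4 NPC markers 3, 3, 3, 3 and 2 rose, with Vim (3.58 to 5.13) and Fabp7 (2.90 to 7.19) higher in all 5 and Pax6 lower in 2. Among 5 neuron markers 2, 2, 0, 1 and 2 rose and 1, 1, 2, 2 and 1 fell, with Map2 higher and Stmn2 lower in 4 clones each. All tested fibroblast markers rose in every clone, led by Col3a1 (10.09 to 12.17). Of 4 endoderm and mesoderm markers 2, 1, 2, 3 and 0 rose. The glia marker S100b was high enough to be tested in 2 clones and rose in both. Gfap was tested in 1 clone and rose, and Aqp4 was tested in 3 and rose in 1, with values from -0.34 to 4.22. Late glia marker sums reached 26.6 RPM in A3 and at most 2.95 RPM in the other clones.

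The second comparison set SmcHD1 KO against WT of the same line, with day as a covariate. None of the 8 genes was called in any of these comparisons. For A3 at days 2 to 7, edgeR called 0 of 8 beside 0.803% of all genes, with 1 at an unadjusted p under 0.05. At day 15 and later it called 0 of 8 beside 0% of all genes, with 2 at an unadjusted p under 0.05. For D5 and G6 together it called 0 of 8 beside 0.381% of all genes at days 2 to 7, with 1 unadjusted, and 0 of 8 beside 0% late, with 3 unadjusted. DESeq2 also called 0 of the 8 in each.

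Neat1 was lower in the KO clones at both periods without passing the test in the fit with day as a covariate. At days 2 to 7, Neat1 stood at 32.4 ± 15.5 RPM (SD, n = 8) in Dom WT and 20.7 ± 11 (n = 8) in A3. In the Cast line it was at 27.6 ± 6.88 RPM (n = 11) in WT, 18.7 ± 5.66 (n = 8) in D5 and 25.9 ± 2.67 (n = 8) in G6. These ranges overlapped. The A3 difference was -0.62 ± 0.28 (log2 fold change ± SE, adjusted p = 0.348, edgeR) at days 2 to 7 and -0.72 ± 0.25 (adjusted p = 0.462) late. With the A3 replicate numbers crossed as a block, a pairing added after the data were seen, the value at days 2 to 7 was called (-0.61 ± 0.15, adjusted p = 0.0347). The D5 and G6 difference was -0.31 ± 0.14 (adjusted p = 0.424) at days 2 to 7 and -0.87 ± 0.32 (adjusted p = 0.356) late. With D5 alone the Neat1 difference at days 2 to 7 was called (-0.64 ± 0.14, adjusted p = 0.00899), and with G6 alone it was -0.04 ± 0.12 (adjusted p = 0.923), so the 2 clones did not give 1 value. D5 alone also passed for Pvt1 (-0.51 ± 0.14, adjusted p = 0.0334) and Dleu2 (-0.39 ± 0.10, adjusted p = 0.0206).

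Gas5 was near WT at days 2 to 7 and lower late in the KO clones, again without a call. At days 2 to 7 its difference was -0.06 ± 0.11 (log2 fold change ± SE, adjusted p = 0.859, edgeR) in A3 and 0.07 ± 0.11 (adjusted p = 0.923) in D5 and G6. Late, it was at 322 ± 121 RPM (SD, n = 4) in Dom WT against 181 ± 62.3 (n = 4) in A3, a difference of -0.70 ± 0.18 (adjusted p = 0.462). Cast WT held 228 ± 48.2 RPM (n = 3), D5 176 ± 55.0 (n = 3) and G6 137 ± 70.1 (n = 3), a difference of -0.53 ± 0.19 (adjusted p = 0.343). For Malat1 the differences at days 2 to 7 were -0.12 ± 0.11 (adjusted p = 0.694) and 0.02 ± 0.11 (adjusted p = 0.977) and the late ones 0.41 ± 0.29 (adjusted p = 0.562) and 0.11 ± 0.27 (adjusted p = 0.875). Pvt1 gave 0.72 ± 0.42 (adjusted p = 0.51) in A3 and -0.71 ± 0.32 (adjusted p = 0.412) in D5 and G6 late. The late Miat difference was -1.01 ± 0.47 (adjusted p = 0.467) in A3 and -0.01 ± 0.64 (adjusted p = 0.996) in D5 and G6.

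**Figure D4:**
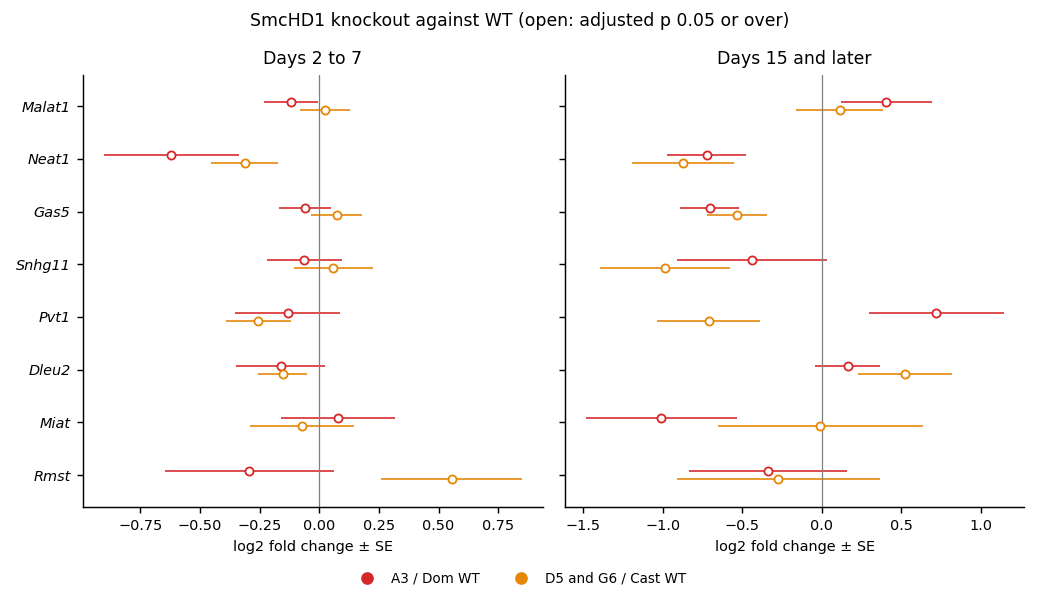
Log2 fold change of SmcHD1 KO against WT of the same line (horizontal axis) for each gene (vertical axis), at days 2 to 7 and at day 15 and later. Points are the edgeR estimate with day as a covariate and bars are 1 SE. All points are open, since no adjusted p was under 0.05, and Neat1 lies left of 0 in both lines and both periods.

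An interaction term tested whether the KO difference was another one late than at days 2 and 3. In the Dom line edgeR called 0 of 8 genes beside 0% of all genes, with 2 at an unadjusted p under 0.05, Gas5 (-0.73 ± 0.24, log2 ± SE, adjusted p = 0.29) and Miat (-1.65 ± 0.50, adjusted p = 0.281). In the Cast line it called 0 of 8 beside 0.869% of all genes, with 3 unadjusted, Gas5 (-0.59 ± 0.25, adjusted p = 0.27), Snhg11 (-1.10 ± 0.45, adjusted p = 0.248) and Dleu2 (0.66 ± 0.29, adjusted p = 0.283). DESeq2 called 0 of 8 in both. Without the day 15 libraries the Dleu2 term was called (1.12 ± 0.30, adjusted p = 0.0257).

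The cross also let each RNA be split by parental allele. The Cast share is the percent of allele-assigned fragments that came from the Cast genome, given where a replicate had at least 20 such fragments. Malat1, Neat1, Gas5, Pvt1 and Dleu2 passed in all 65 replicates, Miat in 62, Rmst in 61 and Snhg11 in 59. The mean share was 45.0 ± 2.86% (SD over replicates) for Malat1, 51.8 ± 2.69% for Gas5, 54.7 ± 2.3% for Pvt1, 53.1 ± 2.67% for Dleu2 and 53.7 ± 4.85% for Rmst. All of these were within 6 points of equal. Neat1 leaned to the 129 allele at 37.6 ± 6.41% and was below 50% in all 65 replicates, from 14.9 to 47.9%. Snhg11 averaged 44.9 ± 10.6%.

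Miat differed between the lines, at 55.6 ± 8.59% Cast (SD, n = 26) in the Dom clones and 74.0 ± 8.99% (n = 36) in the Cast clones. The genes within 5 Mb of Miat did so as well, with median shares of 47.1 to 48.9% in the Dom clones and 64.6 to 68.8% in the Cast clones. In the Cast clones Miat was close to these neighbours at days 2 and 3, at 65.9, 67.4 and 65.4% in WT, D5 and G6. At days 5 and 7, where its level had fallen, it was at 82.6 ± 7.41% (SD, n = 5), 78.2 ± 3.01% (n = 3) and 85.8 ± 8.04% (n = 4), above the neighbours at 66.2, 68.0 and 65.1%. The difference between lines was not tested. This rise was not tested at the minimum of 20 allelic fragments, which not every replicate reached. In the test over time described below, a minimum of 10 let Miat be tested in the Cast clones. At days 5 and 7 it called 4 of 8 genes, 3 higher and 1 lower, beside 3393 of all 11496 genes. At the minimum of 20 it called 2 higher and 1 lower of 6.

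The change of allele share over time was tested with limma after the values were seen, over the clones of a line together with clone as a covariate. In the Dom clones 3 of 7 tested genes were called at days 5 and 7 against days 2 and 3, beside 16.7% of all genes, and 2 of 7 at day 15 and later, beside 26.7%. In the Cast clones 3 of 6 were called at days 5 and 7, beside 30.9%, and 2 of 6 late, beside 36.9%. The genes were Malat1, Gas5 and Snhg11 in both lines at days 5 and 7, and Malat1 and Gas5 late.

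Malat1 moved towards the Cast allele. At days 2 and 3 its share was 41.7 ± 1.59% (SD, n = 4) in Dom WT, with replicates from 39.7 to 43.3, and 40.7 ± 1.35% (n = 5) in Cast WT, from 39.1 to 42.6. At days 5 and 7 it was 46.3 ± 1.55% (n = 4) and 47.4 ± 1.39% (n = 6), from 44.3 to 47.7 and from 45.6 to 49.3. The groups did not overlap in either. The shift was 5.42 ± 0.724 percentage points (SE, limma, adjusted p = 0.000178) in the Dom clones and 6.47 ± 0.539 (adjusted p = 2.36e-09) in the Cast clones. Late it was 4.82 ± 0.662 (adjusted p = 7.15e-05) and 3.92 ± 0.686 (adjusted p = 0.000117). Each share rested on 28529 to 435512 fragments. The median share of genes within 5 Mb was 47.9 to 48.6% at days 2 and 3 and 48.1 to 48.7% at days 5 and 7, and 45.6% late in Cast WT. Without A3, with Dom WT alone, the Dom shift at days 5 and 7 was 4.71 (adjusted p = 0.0946).

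Gas5 also shifted towards the Cast allele, by less than Malat1 at days 5 and 7 and by more late, a difference that was not tested. Its share at days 2 and 3 was 49.1, 48.4, 49.5, 49.7 and 49.7% on average in Dom WT, A3, Cast WT, D5 and G6, and late it was 53.7, 55.6, 51.9, 55.8 and 53.9%. All 5 clone means were higher late. In uninduced ES the Gas5 share was 54.0, 53.5 and 53.2% in A3, D5 and G6, also above days 2 and 3, which was not tested. The median share of genes within 5 Mb of Gas5 went from 48.4, 47.8, 46.9, 48.0 and 46.6% to 47.7, 50.7, 46.4, 50.9 and 46.4% in the same order, so it rose as well in A3 and D5. The part of the neighbourhood in the shift was not tested. The late shift was 5.88 ± 1.43 percentage points (SE, limma, adjusted p = 0.00632) in the Dom clones and 4.18 ± 0.678 (adjusted p = 5e-05) in the Cast clones, and at days 5 and 7 it was 3.83 ± 0.626 (adjusted p = 0.000715) and 2.21 ± 0.586 (adjusted p = 0.00491). The Dom late call was lost without A3 (4.56, adjusted p = 0.0623) or WT (7.19, adjusted p = 0.115), the Dom call at days 5 and 7 without A3 (3.12, adjusted p = 0.158) and the Cast call at days 5 and 7 without D5 (1.67, adjusted p = 0.0864).

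Snhg11 moved the other way, towards the 129 allele. Its level was not called as changed from days 2 and 3 to days 5 and 7 in any clone (adjusted p = 0.176 to 0.985, edgeR). The log2 fold changes in level were -0.62, -1.28, 0.01, -0.05 and -0.65 in Dom WT, A3, Cast WT, D5 and G6. At days 2 and 3 its share was 55.2 ± 2.21% (SD, n = 4) in Dom WT, 51.8 ± 0.993% (n = 4) in A3, 52.4 ± 1.90% (n = 5) in Cast WT, 54.3 ± 2.96% (n = 4) in D5 and 51.9 ± 2.11% (n = 4) in G6. At days 5 and 7 it was 45.4 ± 4.17, 35.2 ± 9.40, 41.3 ± 4.63, 46.5 ± 3.03 and 38.5 ± 4.58% in the same order. The mean fell in all 5 clones, by 13.2 ± 2.55 percentage points (SE, limma, adjusted p = 0.00235) in the Dom clones and by 10.8 ± 1.31 (adjusted p = 5.13e-07) in the Cast clones. With Dom WT alone the change was -9.85 (adjusted p = 0.0621) and with A3 alone -16.6 (adjusted p = 0.0684). The genes within 5 Mb had median shares of 47.4 to 48.3%. Late shares were low where they could be read, at 37.2, 42.3 and 34.5% in Dom WT and 20.4, 45.3 and 37.7% in A3 at days 15, 21 and 35. At day 15 Cast WT had 38% of 287 fragments, D5 38.9% of 229 and G6 37.8% of 156. The remaining shares of the Cast clones rested on few fragments, where Cast WT at day 35 had 11.5% of 26 fragments (95% Wilson interval 4.00 to 29.0) and G6 at day 21 had 10.0% of 20 (2.79 to 30.1). Intervals cover counting error only.

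The Neat1 share was lowest in some of the latest libraries. A3 at day 52 had 14.9% Cast of 114 fragments (95% Wilson interval 9.52 to 22.6), Dom WT at day 52 had 23.9% of 142 (17.7 to 31.6) and D5 had 16% of 25 at day 21 (6.40 to 34.7) and 22.7% of 66 at day 35 (14.3 to 34.2). The late change was not called, at -7.75 ± 3.66 percentage points (SE, limma, adjusted p = 0.134) in the Dom clones and -5.21 ± 2.25 (adjusted p = 0.0763) in the Cast clones. Without G6 the Cast value was called (-8.20, adjusted p = 0.0409).

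**Figure D5:**
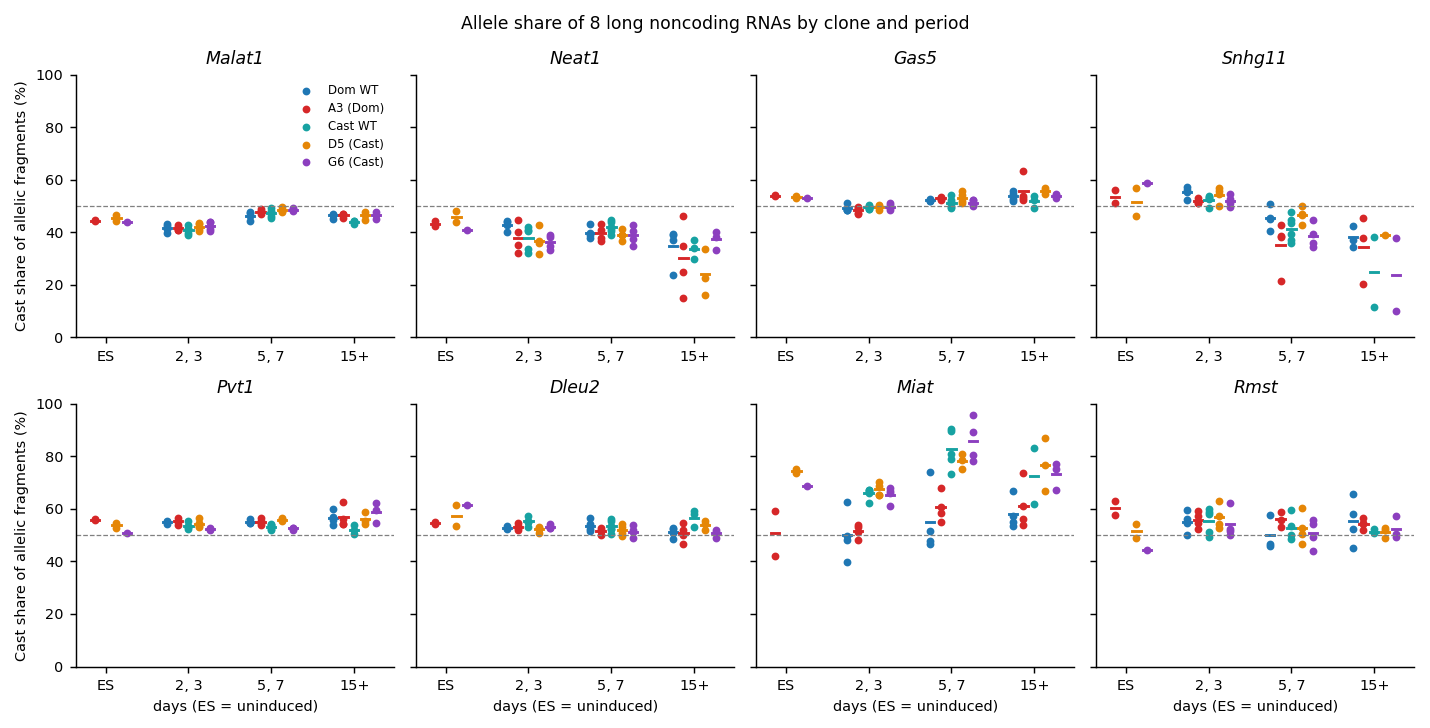
Cast share of allele-assigned fragments in percent (vertical axis) by clone in uninduced ES, days 2 and 3, days 5 and 7, and day 15 and later (horizontal axis). Points are replicates with at least 20 allelic fragments, short bars are means and the dashed line marks 50%. Neat1 stays below 50%, Snhg11 falls after day 3, and Miat lies higher in the Cast clones.

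SmcHD1 KO changed no tested allele share of the 8 genes past the test. Too few allelic fragments left out Rmst at days 2 to 7 and Snhg11 late in both lines, and Miat in the Cast line. For A3 against Dom WT, limma called 0 of 7 genes beside 0.241% of all genes at days 2 to 7, with 1 at an unadjusted p under 0.05, and 0 of 7 beside 0% late, with 0 unadjusted. For D5 and G6 against Cast WT it called 0 of 6 beside 0.0191% at days 2 to 7 and 0 of 6 beside 0.117% late, with 2 unadjusted in each. The unadjusted ones were Snhg11 in A3 (-6.83 ± 2.27 percentage points, adjusted p = 0.245), and in D5 and G6 Dleu2 (-2.06 ± 0.544, adjusted p = 0.119) and Malat1 (1.37 ± 0.392, adjusted p = 0.147) at days 2 to 7 and Dleu2 (-4.42 ± 1.57, adjusted p = 0.496) and Pvt1 (5.37 ± 1.54, adjusted p = 0.386) late. No other tool was run on the shares.

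Likeness of pattern was measured as Pearson's r of log2(RPM + 1) over the 40 group means, which share clones and days, among 10695 genes with a mean of at least 5 RPM. For Gas5 the most similar genes were Eif4a2 (r = 0.957), Taf1d (0.953) and Snhg1 (0.946), all of them snoRNA host genes. Snhg11 was most like 4930447C04Rik (0.974), Wfdc2 (0.973) and Dmc1 (0.971), and Malat1 most like Copz2 (0.919), Farp2 (0.906) and Secisbp2l (0.904). Neat1 was closest to Tbc1d25 (0.919), Serpinb6c (0.916) and Manba (0.909), and Pvt1 to Ulbp1 (0.945), Acyp2 (0.883) and Dapp1 (0.882). Miat was closest to the neuronal genes Myt1l (0.908), Jakmip2 (0.872) and Syt11 (0.867), and Rmst to Foxp2 (0.814), Dcc (0.809) and Akap6 (0.796). Dleu2 had the weakest matches, Sptssa (0.765), Sned1 (0.742) and Matn2 (0.738). Among the 8 themselves, Malat1 and Snhg11 ran most opposite (r = -0.864), while Gas5 and Snhg11 (0.83) and Neat1 and Gas5 (0.783) ran together.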

How the data were processed

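The authors removed ribosomal RNA reads with Bowtie2 (2.3.2), aligned the rest with STAR (2.4.2a) to an N-masked mm10 genome, kept unique alignments, split them by allele with SNPsplit and counted them with featureCounts (1.5.2). Per the file headers, the deposited fragment counts cover whole transcript spans on the sense strand, as total, Cast and 129 fragments. Libraries labelled R1 and R2 under 1 replicate number were summed. Total counts were fitted in R (4.3.3) with edgeR (4.0.16), TMM scaling and filterByExpr, using the quasi-likelihood test across all genes with Benjamini-Hochberg adjustment (threshold 0.05). WT and KO were compared with day as a covariate, and periods within each clone. Cast shares (at least 20 allelic fragments) were fitted with limma (3.58.1). DESeq2 (1.42.0) and the alternatives of the closing section were also run, and the fits were tested on simulated data. Equal replicate numbers did not pair WT with KO samples throughout, and the fits with day as a covariate used no pairing. The 8 genes and the other lists were chosen with earlier results of these data known. Beside the 8, the text names at most 4 genes of each list, those with the largest log2 fold change among the called ones, the nearest neighbours of each of the 8, and for each the 3 genes with the most similar pattern. Some neighbours are not reported here.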

Additional observations from a re-analysis of the deposited data

How the results depend on the processing

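Among results for the 8 genes with an unadjusted p under 0.05, none changed direction under any alternative run. The other results were not screened for a change of direction. Leaving out replicates moved the number of the 8 genes called in the within-clone comparisons. For day 15 and later it ran from 4 to 5 in A3, 5 to 5 in Dom WT, 4 to 6 in Cast WT, 6 to 7 in D5 and 5 to 8 in G6. DESeq2 gave 4 in Dom WT, where Rmst had no adjusted p. For days 5 and 7 it ran from 1 to 4 in Cast WT and 1 to 2 in D5. For ES it ran from 0 to 1 in A3 (2 with all replicates), 1 to 2 in D5 and 0 to 1 in G6. The Cast interaction ran from 0 to 1. For allele shares over time the counts without a clone ran from 0 to 2 (Dom, days 5 and 7, 0 without A3), 1 to 1 (Dom, late), 2 to 3 (Cast, days 5 and 7) and 2 to 4 (Cast, late). At days 5 and 7 Cast WT gave 3 genes rather than 1 with DESeq2, with library totals and with library totals without Malat1 and Xist. The G6 ES count went from 1 to 0 with either kind of library total. D5 alone gave 3 genes against WT at days 2 to 7 where D5 and G6 together gave 0. The causes were not tested.

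With replicate number as a block, 0 of the 8 genes were called in either line at days 2 to 7, and Neat1 was at -0.61 (adjusted p = 0.426) in A3 and -0.34 (adjusted p = 0.279) in D5 and G6. Equal numbers did not pair KO with WT samples throughout. Deviations of same-numbered WT and A3 samples had r of -0.737 to -0.444, and those of WT and D5 or G6 ran from -0.608 to 0.794. With crossed numbers the same r has the other sign (0.444 to 0.737), because each of these clones had 2 replicates a day. It is therefore not a separate result, and the fit without a block does not use it. Same-numbered D5 and G6 samples did deviate together (r of 0.396 to 0.812), while the D5 and G6 fit without the block treats them as independent. The crossed pairing, added after the data were seen, called Neat1 in A3 (-0.61, adjusted p = 0.0347), giving 1 gene, with 540 of all genes called.

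Over all genes, DESeq2 called 558 rather than 124 for A3 at days 2 to 7, 186 rather than 0 late and 155 rather than 0 for the Dom interaction. For D5 and G6 it called 238 rather than 59, 444 rather than 0 late, and 501 rather than 142 for the Cast interaction. It called 3329 rather than 2116 in Dom WT at days 5 and 7 and 1421 rather than 680 in G6 ES. D5 alone gave 1285 genes and G6 alone 273 at days 2 to 7, and the block gave 249 in the Cast line. The Dom line has no R1 and R2 libraries, so that alternative gave no value there. Late values rest on 3 or 4 libraries per clone, and Snhg11 on as few as 4 fragments.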
